A study of Drosophila melanogaster with 10 samples.

Results

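The comparison set the binding sites of Shep against those of CP190 in Kc167 cells, an established Drosophila melanogaster line derived from embryos, as mapped by chromatin immunoprecipitation followed by sequencing (ChIP-seq). All peaks of both lists were used, 1443 of Shep and 2742 of CP190, which make 4185 of the 9570 peaks of the series. A Shep peak and a CP190 peak were taken as shared when they overlapped by 1 bp or more in dm3 coordinates, the rule that defined the members. The Shep list combines 2 libraries, made with a guinea pig and a rabbit antibody from chromatin preparation a and set against input-a. The CP190 list comes from 1 library, made with a rabbit antibody from preparation b and set against input-b. Both come from the same cell line, for which the labels give no genetic change and no treatment. Of the other lists used beside them, Mod(mdg4)2.2 and Rump combine 2 libraries each and Su(Hw) has 1, all from preparation a, so that CP190 is the only factor from preparation b. Factor and chromatin preparation cannot be told apart in this comparison.

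CP190 is a protein with a BTB domain and zinc fingers that sits at most classes of Drosophila insulator and at many promoters, where different DNA-binding proteins recruit it. It is one of the core proteins of the gypsy insulator, beside Su(Hw), which binds the DNA, and Mod(mdg4)2.2. Shep (Alan shepard) is a protein with RNA recognition motifs that associates with gypsy insulator proteins and is known to limit insulator activity in the nervous system. Insulators are DNA elements that, with their proteins, limit contact between enhancers and promoters or halt the spread of silent chromatin.

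Each list is a single deposited file with no replicate, so that no spread between cultures or antibodies can be given and no p-value was computed. The 95% intervals of shares, medians and differences below cover counting error only, since neighbouring peaks of 1 list are not independent samples. Sequencing depth is unknown here. Shep peaks are all 484 bp wide. CP190 peaks run from 480 to 5492 bp with a median of 2025 bp, and 139 of them are exactly 480 bp. The Shep list carries a peak score of the authors, from 82.3 to 315 with a median of 108, and a q-value, which exceeds 0.05 at 454 peaks. The CP190 list has no score.

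Shep sites lay on CP190 more often than CP190 sites carried Shep, in shares of lists of unequal size. Of the 1443 Shep peaks, 375 (26.0%, 95% Wilson interval 23.8 to 28.3) overlapped a CP190 peak. Of the 2742 CP190 peaks, 345 (12.6%, 11.4 to 13.9) overlapped a Shep peak. No Shep peak met more than 1 CP190 peak, while 318 CP190 peaks met 1 Shep peak, 25 met 2, 1 met 3 and 1 met 4. In most pairs the overlap was complete: the Shep peak lay wholly inside the CP190 peak in 309 of 375 pairs (82.4%). The 4 smallest overlaps were 2, 11, 38 and 45 bp, and the 4 smallest gaps of Shep peaks counted as unshared were 35, 36, 38 and 61 bp.

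As a geometric yardstick, CP190 peaks cover 4.47% of the 5 chromosome arms 2L, 2R, 3L, 3R and X. A 484 bp interval would meet a CP190 peak at 5.57% of the places along them. On the same arms 375 of 1430 Shep peaks (26.2%) met CP190. These values describe coverage and give no account of mappable or accessible sequence.

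The midpoint of Shep tended to lie near the middle of the CP190 peak, but far less tightly than the midpoints of the other factors. In 356 of the 375 pairs the Shep midpoint fell inside the CP190 peak, and in 19 just outside its edge. Of those 356, 168 (47.2%, 42.1 to 52.4) fell in the central 20% of the CP190 width, where an even spread would put 20%. The outer zones, the first and the last 20% of the width counted as 1 group, held 67 midpoints (18.8%), where an even spread would put 40%. Both sides were used alike, with 178 midpoints to the left and 177 to the right of the CP190 midpoint. The median distance between the Shep and the CP190 midpoint was 206.5 bp (95% interval 173.5 to 252.5, quartiles 88.8 and 461.5), and 94 pairs (26.4%) were within 100 bp.

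For comparison, the central 20% of CP190 peaks held 1269 of 1595 Mod(mdg4)2.2 midpoints (79.6%, 77.5 to 81.5), 854 of 1120 Su(Hw) midpoints (76.3%, 73.7 to 78.6) and 216 of 246 Rump midpoints (87.8%, 83.1 to 91.3). Rump is an RNA-binding protein like Shep. The share of Shep was lower than that of Mod(mdg4)2.2 by 32.4 percentage points, a difference of -32.4 points with an interval from -37.8 to -26.8. Against Su(Hw) the difference was -29.1 points (-34.7 to -23.3), and against Rump -40.6 points (-46.8 to -33.6). Each of these intervals leaves out 0. The median distance to the CP190 midpoint was 33 bp for Rump, 37.5 bp for Mod(mdg4)2.2 and 73.5 bp for Su(Hw), all below the interval of Shep.

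**Figure D1:**
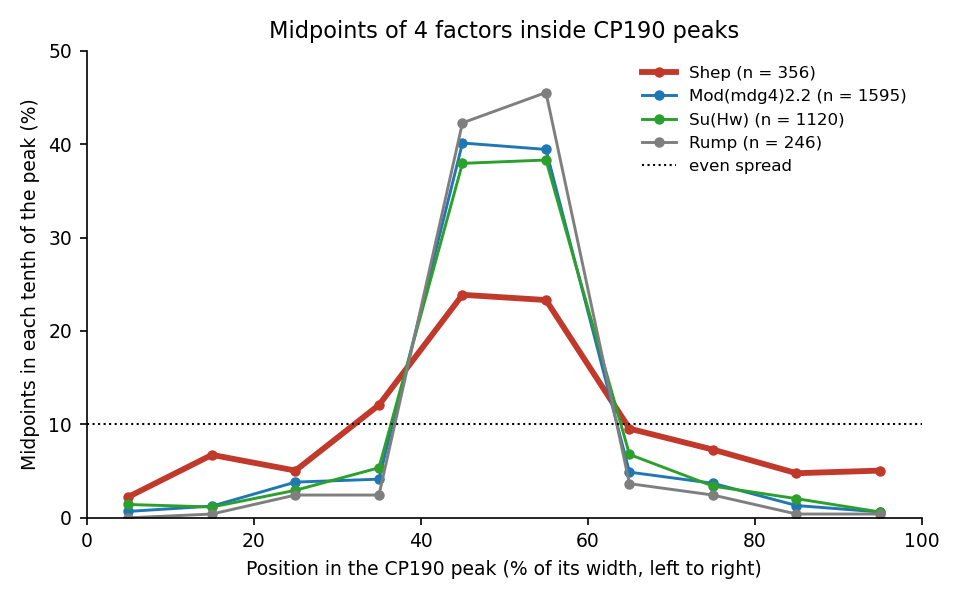
Share of midpoints (percent, y axis) in 10 equal zones of the CP190 peak width (x axis, left to right) for Shep, Mod(mdg4)2.2, Su(Hw) and Rump; the dotted line is an even spread. The Shep curve is lower and broader, with 47.2% of 356 midpoints in the central 20% of the width, against 76.3% to 87.8% for the other factors.

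The position of Shep was also compared by the presence of Mod(mdg4)2.2, by that of Su(Hw) and by the Shep score. The central 20% held 48.7% of 150 Shep midpoints at CP190 peaks with Mod(mdg4)2.2 and 46.1% of 206 at peaks without it, a difference of 2.55 points (-7.86 to 12.9). At CP190 peaks with Su(Hw) it held 50% of 88, and at those without Su(Hw) 46.3% of 268, a difference of 3.73 points (-8.11 to 15.5). Shep peaks in the upper part of the score range, above the median, had 44.4% of 180 midpoints there, and those below the median 50% of 176, a difference of -5.56 points (-15.7 to 4.77). All 3 intervals include 0 and reach beyond 10 points on at least 1 side, so a difference of that size on that side remains possible.

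The central share was higher at wider CP190 peaks. At CP190 peaks of at least the median width 54.4% of 215 Shep midpoints were in the central 20%, against 36.2% of 141 at narrower peaks, a difference of 18.2 points (7.67 to 28.2). The distance in base pairs, which is not divided by the width, had overlapping intervals, with medians of 198 bp (145.5 to 246) at the wider and 227 bp (183.5 to 297.5) at the narrower peaks. It is still bounded by the width, since only midpoints inside the CP190 peak were counted. Where a CP190 peak met 2 or more Shep peaks, 12 of 52 Shep midpoints (23.1%, 13.7 to 36.1) were central, against 156 of 304 (51.3%, 45.7 to 56.9) where it met 1. This contrast is set in large part by the grouping, since Shep midpoints that lie apart, by a median of 586 bp at CP190 peaks with 2, cannot all be in the central zone. On X, 44 of 75 midpoints (58.7%) were central, against 124 of 281 (44.1%) on the 4 autosomal arms, a difference of 14.5 points (1.82 to 26.4).

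Within CP190 peaks that also held another factor, Shep was set against that factor's midpoint. In 150 pairs with Mod(mdg4)2.2 the median distance of Shep to the nearest Mod(mdg4)2.2 midpoint was 125.5 bp (91 to 165), and to the CP190 midpoint 235.25 bp (169 to 307). Shep was nearer to Mod(mdg4)2.2 than to the CP190 midpoint in 75 of these 150 pairs, and 64 (42.7%) were within 100 bp of it. In 88 pairs with Su(Hw) the median distance was 376.75 bp (263.5 to 532.5) to Su(Hw) and 222 bp (143.5 to 283.5) to the CP190 midpoint. Only 13 of these 88 Shep midpoints (14.8%) were within 100 bp of Su(Hw).

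Mod(mdg4)2.2 and Su(Hw) were also placed less centrally where Shep was present. Mod(mdg4)2.2 midpoints were in the central 20% in 120 of 168 cases (71.4%) at CP190 peaks with Shep and in 1149 of 1427 (80.5%) at those without, a difference of -9.09 points (-16.6 to -2.45). For Su(Hw) the values were 54 of 86 (62.8%) with Shep and 800 of 1034 (77.4%) without, a difference of -14.6 points (-25.4 to -4.75). For Rump they were 21 of 26 (80.8%) with Shep and 195 of 220 (88.6%) without, and the interval of the difference of -7.87 points (-26.8 to 3.91) includes 0. The score of the Mod(mdg4)2.2 peaks, as the authors deposited it, had a median of 95.1 (80.9 to 113) at CP190 peaks with Shep and 146 (135 to 153) at those without.

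Around the CP190 midpoint, the density of Shep was highest within 1 kb, about the reach of the CP190 peak itself. Over the 2724 CP190 peaks of the arms, Shep midpoints numbered 196 within 250 bp, which is 144 per Mb of the ground examined. From 250 to 500 bp there were 55.8 per Mb, and from 500 to 1000 bp 30.8 per Mb. From 1 to 1.5 kb there were 14.7 per Mb, and from 15 to 20 kb 14.6 per Mb. The average over the arms is 12.1 per Mb. Beyond 1 kb the bins up to 20 kb held between 13.2 and 17.5 per Mb, all above that average, with the highest value from 3 to 5 kb.

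**Figure D2:**
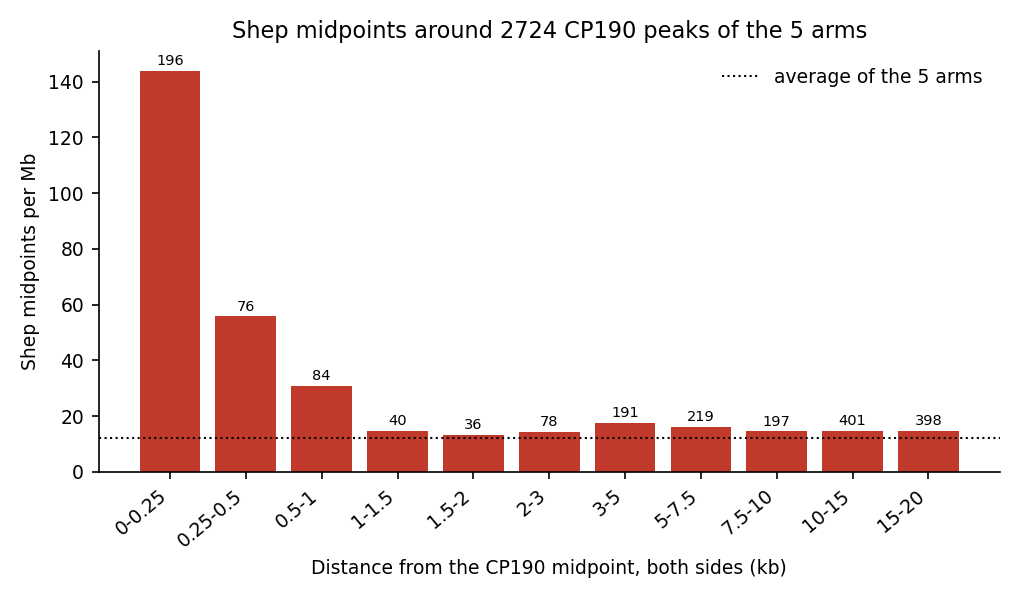
Shep midpoints per Mb (y axis) by distance from the midpoint of CP190 peaks, both sides together (x axis, kb; bins of unequal size), with the count above each bar and the arm average as a dotted line. Density is 144 per Mb within 250 bp and between 13.2 and 17.5 per Mb in every bin beyond 1 kb.

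Unshared peaks were mostly far from the other list rather than near misses. Of the 1068 Shep peaks without CP190, 64 had a CP190 peak within 1 kb. The median gap was 10985 bp (10076 to 12179) over the 1065 that lay on a chromosome with any CP190 peak, and 567 of those (53.2%) had a gap over 10 kb. Of the 2397 CP190 peaks without Shep, 50 had a Shep peak within 1 kb, and the median gap was 31820 bp (29698 to 33657) over 2395 peaks. Gaps also depend on how dense the other list is. The 5 arms held 20.6 to 25.2 CP190 peaks per Mb and 9.67 to 15.7 Shep peaks per Mb. The gaps were not set against those of random places.

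CP190 peaks with Shep were slightly wider than those without. Their median width was 2063 bp (2036 to 2093, quartiles 1909 and 2154, n = 345), against 2021 bp (2015 to 2027, quartiles 1888 and 2111, n = 2397) for CP190 peaks without Shep. The difference of medians was 42 bp (14.3 to 72.6). It was 26 bp without chromosome X and 65.5 bp without chromosome 2R, and it stayed above 0 under each of the 15 alternatives. Peaks of exactly 480 bp were 11 of the 345 (3.19%) and 128 of the 2397 (5.34%).

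A wide peak meets a Shep peak more often by its width alone, so the share was also taken by width decile and with fixed windows. The share did not climb evenly with width. It lay between 8.70% and 12.8% in the 7 lower deciles, from 480 to 2099 bp, and was 15.8%, 18.5% and 20% in the 3 upper deciles, from 2100 to 5492 bp. Together, 148 of 817 peaks of the upper deciles (18.1%) and 197 of 1925 of the lower ones (10.2%) carried Shep, a difference of 7.88 points (5.01 to 10.9). With the distance fixed, a Shep midpoint lay within 1 kb of the CP190 midpoint at 17.0% of the upper and 10.1% of the lower deciles, a difference of 6.94 points (4.13 to 9.94). With both lists resized to 300 bp the shares were 11.8% and 5.97%. Per Mb of places where a 484 bp peak would meet them, Shep overlaps numbered 70.5 in the upper and 48.6 in the lower deciles. By this measure the widest peaks did not stand apart. Deciles 1 and 2, the narrowest, had 79.6 and 70.1 per Mb, and deciles 3 to 7 had 36.9 to 49.2. The 3 upper deciles had 62.2, 76.5 and 72.2 per Mb. The cut between the upper and the lower deciles was placed after the shares had been seen. Mod(mdg4)2.2 also went with width, at 20.7% of CP190 peaks in the lowest decile and 73.5% in the highest, and its part in this pattern was not tested.

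**Figure D3:**
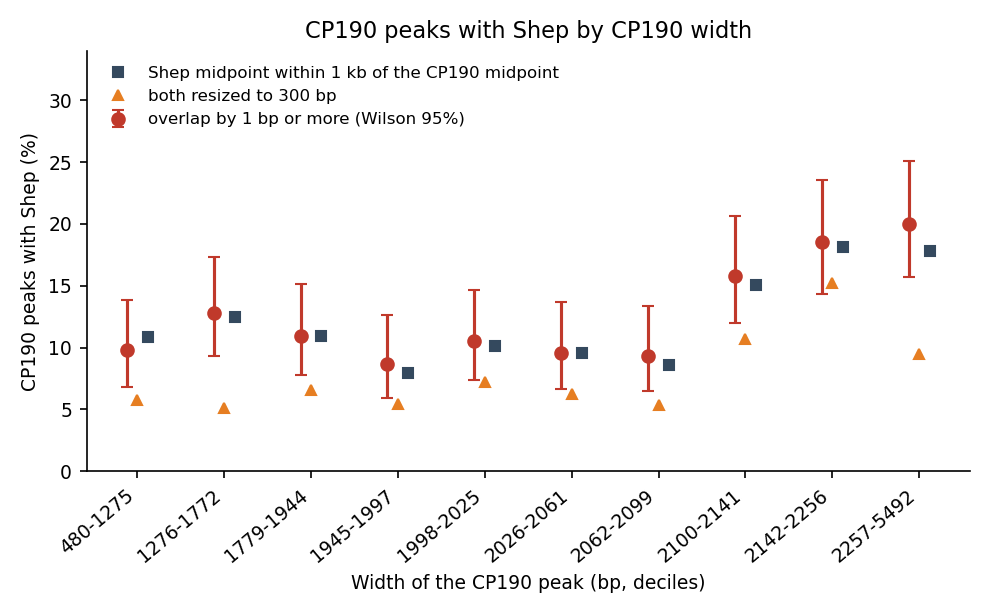
Percent of CP190 peaks with Shep (y axis) by decile of CP190 width (x axis, bp). Circles with Wilson 95% bars count any overlap, squares a Shep midpoint within 1 kb of the CP190 midpoint, and triangles overlap after resizing both to 300 bp. The 3 widest deciles are higher than the 7 others by each measure drawn. Overlaps per Mb, which are not drawn, were also high in the narrowest deciles.

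Shep peaks with and without CP190 had nearly the same median score. The median Shep score was 108 (104 to 111, n = 375) with CP190 and 108 (105 to 111, n = 1068) without it, and the quartiles were 92.1 and 133 with CP190 and 90.9 and 138 without it. By q, CP190 was at 153 of 617 Shep peaks with q up to 0.01 (24.8%, 21.6 to 28.4), at 114 of 372 with q from 0.01 to 0.05 (30.6%, 26.2 to 35.5) and at 108 of 454 with q above 0.05 (23.8%, 20.1 to 27.9). The middle class was above the last by 6.86 points (0.775 to 13.0), and the first differed from the middle by -5.85 points (-11.7 to -0.138) and from the last by 1.01 points (-4.24 to 6.13). These 3 intervals are not adjusted for their number, and the share did not follow the order of q. Over the same 3 classes the share of Shep peaks with Mod(mdg4)2.2 was 28.7%, 16.7% and 11.7%.

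Single sites show how far off centre Shep can lie. Sites are named from 2L, 3L, 3R and X only, so that the shared peak of highest score in the whole list, at 315, is not among them. The Shep peak of highest score with CP190 there, at chrX:18528656-18529139 (score 253), lay in a CP190 peak of 2171 bp with Mod(mdg4)2.2, at an offset of -593.5 bp from its midpoint, negative offsets being to the left. The next, at chr3R:17444764-17445247 (score 247), lay at an offset of -389 bp in a CP190 peak of 2590 bp, also with Mod(mdg4)2.2. At chrX:10638678-10639161 (score 246) the offset was -181.5 bp in a CP190 peak of 2117 bp, and no other factor was there. At chr3R:19856819-19857302 (score 244) it was -555.5 bp, with Mod(mdg4)2.2, and at chr2L:20104546-20105029 (score 243) it was 94.5 bp, with Su(Hw). The distance was over 100 bp at 4 of these 5 sites. Over all 356 Shep midpoints inside CP190 peaks, 94 (26.4%) were within 100 bp, so that most lay farther off. The 5 sites are examples and not a departure from the list.

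The Shep peaks of highest score without CP190 on these arms were at chr3R:133447-133930 (score 265, nearest CP190 peak 85819 bp away), at chr3L:19625817-19626300 (score 247, 16598 bp away) and at chr3R:11983640-11984123 (score 239, 10634 bp away). All 3 overlapped Mod(mdg4)2.2, and the first also Su(Hw).

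CP190 peaks at both ends of the width range carried Shep. The widest with Shep was chrX:18213094-18217668 (4575 bp), which also held Mod(mdg4)2.2, Su(Hw) and Rump, and its Shep peak (score 86.8, q = 0.118) had an offset of 234.5 bp. The next were chrX:7954551-7958586 (4036 bp, with Mod(mdg4)2.2) and chr3L:3222057-3226013 (3957 bp, with Su(Hw)), with Shep at offsets of -1422 and -1088.5 bp. Of the 11 peaks with Shep that share the lowest width of 480 bp, the first 3 of these arms in order of chromosome and start were chr2L:825683-826162, chr2L:21629742-21630221 and chr3L:1298372-1298851, with Shep scores of 90.8, 144 and 230. These 3 held none of the other factors.

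A single CP190 peak met 4 Shep peaks, chr2L:869344-872819 (3476 bp), which held no other factor. Its Shep midpoints had offsets of -229, 39, 397 and 1745 bp, with scores of 85.8, 101, 107 and 82.5. Among the 25 CP190 peaks with 2 Shep peaks, the Shep midpoints were 199 to 1765 bp apart with a median of 586 bp, and in 12 of the 25 the Shep peaks overlapped each other. Neighbouring Shep peaks overlapped in 46 places in the list as a whole, so that some of them may be parts of 1 site.

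Neither list was detectably denser around its shared peaks. Other Shep peaks with a midpoint within 50 kb numbered 2.06 ± 1.83 (mean and SD, n = 375) around Shep peaks with CP190 and 2.04 ± 1.98 (n = 1068) around those without, a difference of 0.0247 (-0.196 to 0.245). Other CP190 peaks within 50 kb numbered 2.53 ± 1.60 (n = 345) around CP190 peaks with Shep and 2.47 ± 1.59 (n = 2397) around those without, a difference of 0.0636 (-0.116 to 0.244). With the wider 50% of CP190 peaks only, the CP190 difference was -0.210 (-0.384 to -0.0356), so that this result depends on the CP190 peaks taken. In that setting the narrower CP190 peaks were also left out of the neighbours counted, so that the measure itself changed. The nearest Shep midpoint was at a median of 13525 bp (10820 to 17491, n = 375) from Shep peaks with CP190 and 14559 bp (12730 to 16285, n = 1065) from those without. The nearest CP190 midpoint was at 13928.5 bp (11996 to 15955, n = 345) from CP190 peaks with Shep and 14566 bp (13816.5 to 15486.5, n = 2396) from those without. The intervals overlap within each pair.

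Density of the other list, leaving out the overlapping peak itself, differed in 1 direction only. Around Shep peaks, CP190 peaks that did not overlap numbered 2.63 ± 1.67 with CP190 and 2.70 ± 1.65 without, a difference of -0.0748 (-0.271 to 0.121). Around CP190 peaks, Shep peaks that did not overlap numbered 1.83 ± 1.65 with Shep and 1.35 ± 1.54 without, a difference of 0.476 (0.291 to 0.661). Of the CP190 peaks, 71 of 345 (20.6%) with Shep and 867 of 2397 (36.2%) without had no further Shep peak within 50 kb. Read the other way, Shep was at 7.57% (6.04 to 9.44) of 938 CP190 peaks with no further Shep peak in that range. It was at 13.9% (11.6 to 16.5) of 769 peaks with 1, at 13.8% (11.1 to 17.0) of 516 with 2, at 18.6% (14.4 to 23.8) of 263 with 3, at 18.5% (13.5 to 24.9) of 178 with 4 or 5 and at 17.9% (11.0 to 27.9) of 78 with 6 to 13. The interval of the first class lies below those of all the others. Within 10 kb the difference had the same direction, with 0.406 Shep peaks around CP190 peaks with Shep and 0.251 around those without (0.155, 0.0790 to 0.230). The grouping enters this contrast, since CP190 peaks with Shep were picked for having a Shep peak there. Any clustering of Shep peaks with each other would then add Shep neighbours to that group. Other Shep peaks within 50 kb numbered 2.06 and 2.04 around Shep peaks with and without CP190. The part of the grouping was not tested.

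Across 116 whole windows of 1 Mb on the arms, the numbers of Shep and CP190 peaks had a Pearson r of 0.50 and a Spearman rho of 0.49. The r was 0.47 without the 2 windows farthest from the median Shep count. These windows share the same genome and the same mapping, and the r is a description. Windows held 1 to 31 Shep peaks with a median of 11, and 0 to 45 CP190 peaks with a median of 23.5. With windows ordered by CP190 and cut into 3 equal parts, Shep peaks met CP190 in 22.6% (18.6 to 27.2) of 363 cases in the poorest windows, 24.4% (20.7 to 28.5) of 464 in the middle and 30% (26.4 to 33.9) of 583 in the richest. Windows rich in CP190 offer more CP190 sequence to meet, and no allowance was made for this.

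Most windows of 100 kb with a shared Shep peak held only 1, and these counts were not set against a random spread. Of the windows of 100 kb on 2L, 3L, 3R and X that held a shared Shep peak, 174 held 1, 41 held 2, 9 held 3, 1 held 4 and 1 held 5. The fullest was chr2L:800001-900000, where 5 of 6 Shep peaks met CP190 among 8 CP190 peaks. Next came chr2L:400001-500000, with 4 of 10 Shep peaks and 8 CP190 peaks. Of the 9 windows tied at 3, the first by chromosome and start was chr2L:6400001-6500000, with 3 of 5 Shep peaks and 3 CP190 peaks.

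By chromosome, Shep peaks of X met CP190 most often. The share was 80 of 251 Shep peaks on X (31.9%, 26.4 to 37.9), 64 of 222 on 2L (28.8%, 23.3 to 35.1), 83 of 330 on 2R (25.2%, 20.8 to 30.1), 53 of 236 on 3L (22.5%, 17.6 to 28.2) and 95 of 391 on 3R (24.3%, 20.3 to 28.8). X differed from the 4 autosomal arms together, at 25.0%, by 6.85 points (0.830 to 13.3). A 484 bp interval would meet CP190 at 6.18% of the places on X and at 4.93% to 5.94% on the other arms, so that X also offers more CP190 sequence. The lowest of these values, 4.93%, was on 2L, which had the second highest share of Shep peaks with CP190. The part of coverage in the differences between arms was not tested. Put another way, 21.3% of Shep peaks with CP190 and 16.0% of those without were on X, which holds 17.4% of all Shep peaks, a difference of 5.32 points (0.831 to 10.2).

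CP190 peaks showed another order. Shep was at 73 of 565 CP190 peaks on X (12.9%, 10.4 to 15.9) and at 12.6% of those on the 4 autosomal arms, a difference of 0.322 points (-2.59 to 3.62). The share was 12.3% on 2L, 14.2% on 2R and 14.4% on 3R, and lowest on 3L, at 49 of 535 peaks (9.16%, 7.0 to 11.9). Chromosome 3L held 14.2% of CP190 peaks with Shep and 20.3% of those without, a difference of -6.07 points (-9.76 to -1.71). Of the 10 such differences, over 5 arms and 2 lists, those of X for Shep and of 3L for CP190 left out 0. Their intervals are not adjusted for the number compared.

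No shared peak lay outside the 5 arms. On chromosome 4, 0 of 8 Shep peaks and 0 of 13 CP190 peaks were shared, with upper Wilson bounds of 32.4% and 22.8%. On the heterochromatic and unplaced scaffolds 0 of 5 peaks of each list were shared. Along the arms, from the end far from the centromere to the end near it and cut into 5 equal parts, the share of Shep peaks with CP190 was 26.9%, 27.5%, 25.8%, 25.5% and 25.4%. The same parts had 11.8%, 13.6%, 12.3%, 12.9% and 12.8% of CP190 peaks with Shep. No difference along the arm went beyond counting error.

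**Figure D4:**
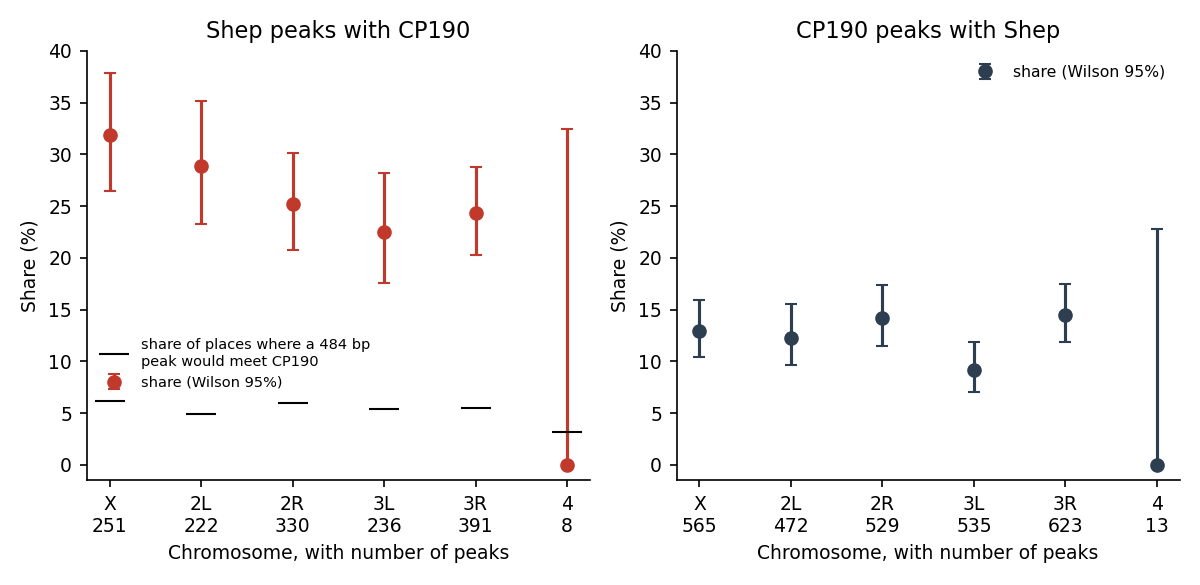
Left, percent of Shep peaks with CP190, and right, percent of CP190 peaks with Shep, by chromosome (x axis, with the number of peaks), with Wilson 95% bars; black dashes on the left mark the share of places at which a 484 bp interval would meet CP190. Shep peaks of X reach 31.9%, CP190 peaks of 3L have the lowest share of the arms, 9.16%, and chromosome 4 has none in either list.

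Mod(mdg4)2.2 and Su(Hw), each taken over all its peaks, were more frequent at shared than at unshared peaks of Shep, and less frequent at shared than at unshared peaks of CP190. Among Shep peaks, those with CP190 held the other proteins more often. Mod(mdg4)2.2 was at 121 of 375 Shep peaks with CP190 (32.3%, 27.7 to 37.2) and at 171 of 1068 without it (16.0%, 13.9 to 18.3), around 20.2% of all Shep peaks. Su(Hw), at 12.8% of all Shep peaks, was at 24% of those with CP190 and 8.80% of those without. Rump, at 1.52% of all Shep peaks, was at 17 of 375 (4.53%) and 5 of 1068 (0.468%). The differences were 16.3 points (11.2 to 21.6) for Mod(mdg4)2.2, 15.2 points (10.8 to 20) for Su(Hw) and 4.07 points (2.27 to 6.68) for Rump. These factors also met CP190 often over their whole lists, with or without Shep. The 2678 Mod(mdg4)2.2 peaks made 1609 overlapping pairs with CP190, the 2369 Su(Hw) peaks 1188 and the 338 Rump peaks 247. The differences were not set against this, so they are not particular to Shep sites.

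Among CP190 peaks, Mod(mdg4)2.2 was at 143 of 345 CP190 peaks with Shep (41.4%, 36.4 to 46.7) and at 1288 of 2397 without it (53.7%, 51.7 to 55.7), around 52.2% of all CP190 peaks. Su(Hw), at 43.1% of all, was at 26.1% of those with Shep and 45.6% of those without. The differences were -12.3 points (-17.7 to -6.65) and -19.5 points (-24.3 to -14.2). Rump, at 8.86% of all, was at 7.25% and 9.09%, a difference of -1.85 points whose interval (-4.44 to 1.56) includes 0. The class with Mod(mdg4)2.2 but no Su(Hw) went the other way, at 20.3% of CP190 peaks with Shep and 12.5% of those without, a difference of 7.82 points (3.67 to 12.5). The class with both was at 21.2% and 41.3%, a difference of -20.1 points (-24.5 to -15.1). At Shep peaks, Mod(mdg4)2.2 without Su(Hw) was at 16.5% of those with CP190 and 12.9% of those without (3.61 points, -0.422 to 8.12).

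Taking the 2 partners together shows where the contrast lies. Shep was at 185 of 1190 CP190 peaks with neither Mod(mdg4)2.2 nor Su(Hw) (15.5%, 13.6 to 17.7), at 70 of 369 with Mod(mdg4)2.2 only (19.0%, 15.3 to 23.3), at 17 of 121 with Su(Hw) only (14%, 8.96 to 21.4) and at 73 of 1062 with both (6.87%, 5.50 to 8.56). The first 3 intervals overlap and the last is apart from them. CP190 peaks with neither exceeded those with both by 8.67 points (6.10 to 11.2). When a Shep midpoint within 1 kb was counted, so that CP190 width does not enter the Shep count, the difference was 8.53 points (6.0 to 11.1). The classes themselves still rest on overlap with the whole CP190 peak, with median widths of 2061 bp for both and 1977 bp for neither. The neither class was above the class with both on each arm, by values from 13.6% and 9.25% on 2L to 20.2% and 6.37% on 3R, and in the wider (19.9% and 8.54%) and the narrower part of the CP190 list (13.2% and 4.19%).

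From the Shep side the class with both had the highest share rather than the lowest. These shares are of Shep peaks and those above of CP190 peaks. Both partners were at 1062 CP190 peaks, most of them without Shep. The share of all sites with both partners that carry CP190, with or without Shep, is not given here. The high share is therefore not a trait shown for Shep. CP190 was at 223 of 1059 Shep peaks with neither partner (21.1%, 18.7 to 23.6), at 31.0% of 200 with Mod(mdg4)2.2 only, at 33.7% of 92 with Su(Hw) only and at 59 of 92 with both (64.1%, 53.9 to 73.2). Most shared sites nevertheless had neither partner: 223 of the 375 Shep peaks with CP190 (59.5%, 54.4 to 64.3) and 185 of the 345 CP190 peaks with Shep (53.6%, 48.4 to 58.8). Against unshared peaks the 2 lists went in opposite directions. Among Shep peaks without CP190, 836 of 1068 (78.3%) had neither, a difference of -18.8 points (-24.4 to -13.3). Among CP190 peaks without Shep, 1005 of 2397 (41.9%) had neither, a difference of 11.7 points (6.06 to 17.2).

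**Figure D5:**
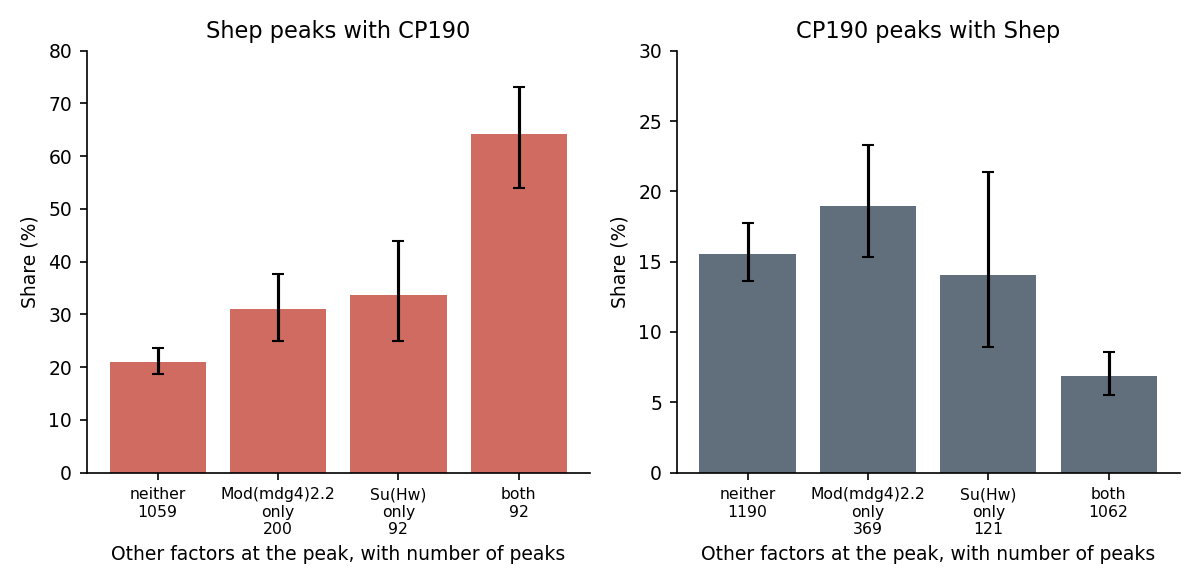
Left, percent of Shep peaks with CP190, and right, percent of CP190 peaks with Shep (y axes, unlike scales), by the presence of Mod(mdg4)2.2 and Su(Hw) at the peak (x axis, with the number of peaks), with Wilson 95% bars. Shep peaks with both partners have CP190 at 64.1%, while CP190 peaks with both have Shep at 6.87%, below the other 3 classes. These shares have unlike bases, and the CP190 share of all sites with both partners is not shown.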

How the data were processed

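ChIP-seq peak lists of 5 factors in Kc167 cells were used, 1 list per factor. The submitters' processing notes name build dm3 and, with no order of use, Picard 1.77, Bowtie 0.12.8, cutadapt 1.1, Trimmomatic 0.20 and bedtools 2.17.0. How peaks were called, at which threshold, how the 2 Shep libraries were joined and how deep each library was sequenced is not given in the sources. The Shep, Mod(mdg4)2.2 and Rump lists hold a peak score, as the authors deposited it, used only within a list. A further deposited column, read as −log10 of a q-value from its place in the narrowPeak format, gave q. Start positions, deposited counted from 0, are printed counted from 1.

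Shares carry Wilson 95% intervals, differences of shares Newcombe intervals, medians order-statistic intervals and differences of means an interval from their standard errors. The length of a chromosome is the end of its last peak in any of the 5 lists. Distances run between midpoints, gaps between edges. Overlap and interval functions were checked against bedtools 2.31.1 and statsmodels 0.14.6 on simulated data. The work used pandas 2.3.3, NumPy 2.4.6 and SciPy 1.17.1 under Python 3.11.15, with matplotlib 3.10.9.

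Members, measures and lists were chosen with earlier results of these data known. Sites named were, on 2L, 3L, 3R and X, the 5 shared and 3 unshared Shep peaks of highest score, the 3 widest and 3 narrowest CP190 peaks with Shep, the CP190 peak that meets the most Shep peaks, and the 3 fullest windows of 100 kb, by shared Shep peaks. Windows tied in count were taken in order of chromosome and start. No genome or gene annotation of dm3 was used here, so genes and sequences are not analysed.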

Additional observations from a re-analysis of the deposited data

How the results depend on the processing

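Each of 8 results was recomputed under 14 to 16 alternatives, 121 values in all, and 107 stayed within the 95% interval of the reported value. These are not independent checks, since some settings could not change a result or repeated another. Requiring the Shep midpoint inside the CP190 peak and requiring 50% of the Shep peak covered gave equal values throughout. With these 2 settings, a gap of up to 1 kb or the 5 arms alone, the central share stayed at 168 of 356. The share of Shep peaks with CP190 was 30.4% with a gap of up to 1 kb allowed, 14.9% with all peaks resized to 300 bp and 15.2% with the 50% of CP190 peaks of greatest width. In the same settings the share of CP190 peaks with Shep was 14.4%, 7.70% and 14.6%. It was 9.23% with Shep peaks of q up to 0.05, 5.40% with q up to 0.01 and 6.6% with the 50% of Shep peaks of highest score, since fewer Shep peaks enter. The central 20% of the CP190 peak held 29.7% of Shep midpoints with peaks resized to 300 bp, where it is 60 bp wide, and 54.5% with the wider CP190 peaks. With the wider CP190 peaks the density difference turned to -0.258 for Shep (-0.523 to 0.00734) and -0.210 for CP190 (-0.384 to -0.0356), where the interval of CP190 leaves out 0, and the difference in Mod(mdg4)2.2 at Shep peaks was 26.0 points. In this setting Shep peaks that met only a narrower CP190 peak counted as without CP190. Narrower CP190 peaks were also not counted as neighbours. The cause of these changes was not tested. Joining Shep peaks that overlap each other, chosen after the data had been seen, gave values within the intervals for all 8 results. The share, width and density of CP190 peaks were unchanged by this setting. The density differences, near 0, took either sign over the alternatives (-0.258 to 0.220 for Shep and -0.210 to 0.201 for CP190). The difference in X share ran from 4.88 to 9.59 points and that in width from 26 to 65.5 bp.

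No paired analysis was possible because each factor has 1 deposited list, in which the libraries are already combined, so leaving out a replicate was not run either. Read depth is unknown, so sites that either list did not reach are not counted, and the CP190 list has no score by which to set its weaker peaks aside.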
